A study of Mus musculus with 6 samples.

Results

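Kcne1 and 7 other genes of delayed rectifier potassium channels were followed across heart ventricle RNA from mice with and without Hspa4, a cytosolic chaperone of the Hsp110 family. The 8 genes were Kcne1, Kcne2, Kcne3, Kcne4, Kcnq1, Kcnh2, Kcna5 and Kcnv2, taken by symbol from the 20239 genes measured on the arrays, with 1 probe set for each. The set was put together with the Kcne1 difference between the groups already in view, so the values of all 8 genes are given as descriptions, without a test. By the labels, total RNA came from the ventricles of 3.5-week-old male mice of the 129/Sv background. Of the 6 arrays, 3 were labelled Hspa4-/- (called KO-labelled arrays 1, 2 and 3) and 3 Hspa4+/+ (wild-type arrays 1, 2 and 3), and each stood for 1 mouse. Both groups were untreated as far as the labels say, and the sources used here do not say which part of Hspa4 was disrupted. The comparison asks how these channel genes differ in the young ventricle when Hspa4 is lost.

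Delayed rectifier channels open on depolarisation and carry outward potassium current that helps to end the cardiac action potential. Each channel is built of pore-forming alpha subunits, here KCNQ1, KCNH2 and Kv1.5 (the product of Kcna5), and single-span KCNE proteins that sit beside the pore and change its opening. KCNE1 turns KCNQ1 into the slow delayed rectifier IKs. In the adult mouse ventricle IKs and the KCNH2 current IKr are small, and Kv1.5 and Kv2 channels carry much of the delayed rectifier current.

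Hspa4 itself read 6.63 and 6.75 (log2 value) on KO-labelled arrays 2 and 3, but 9.33 on KO-labelled array 1, close to the wild-type arrays at 9.74, 9.50 and 9.48. That array also read 7.68 for Xist, the RNA of the inactive X chromosome of female cells, where the other arrays lay between 5.51 and 5.69. Its Xist value thus goes against the male sex given for the mice, and the reason was not tested. KO-labelled array 1 is therefore called by its label. The differences of the 8 genes are given on all 6 arrays and on the 5 left without it. Some values of other genes and lists are given on 6 arrays only, with that array included. Array medians lay between 6.43 and 6.48. Defining genes of the ventricular myocyte were high on every array, with Myl2 between 11.30 and 11.74. The atrial genes Sln and Bmp10 lay between 5.39 and 5.90, and Myl7, Mybphl and Nr2f1 between 5.76 and 6.40. The remaining atrial markers were higher. Stard10 lay between 8.37 and 8.87, Nr2f2 between 7.73 and 7.94 and Myl4 between 6.97 and 7.72. In RNA from whole tissue, fewer cells of a type and less RNA per cell cannot be told apart.

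Kcne1, the accessory subunit of the KCNQ1 channel, was high on only 2 arrays. It read 8.52 and 8.54 (log2 value) on KO-labelled arrays 2 and 3, against 6.94, 7.21 and 7.02 in wild type. KO-labelled array 1 read 7.17, inside the wild-type range. The 2 high arrays were thus nearly equal to each other and stood 1.46 and 1.48 above the wild-type mean, a distance several times the wild-type range of 0.27. On the linear scale they were 2.75-fold and 2.79-fold the wild-type level, and the remaining KO-labelled array was 1.08-fold. Over all 6 arrays Kcne1 was 8.08 ± 0.78 (SD, n = 3) on the KO-labelled arrays and 7.06 ± 0.14 (SD, n = 3) in wild type, a log2 difference of 1.02 (SE 0.30). Without KO-labelled array 1 the difference was 1.47 (SE 0.09, n = 2 against 3). On 6 arrays it became 0.80 when KO-labelled array 2 was left out and 0.79 when array 3 was.

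**Figure D1:**
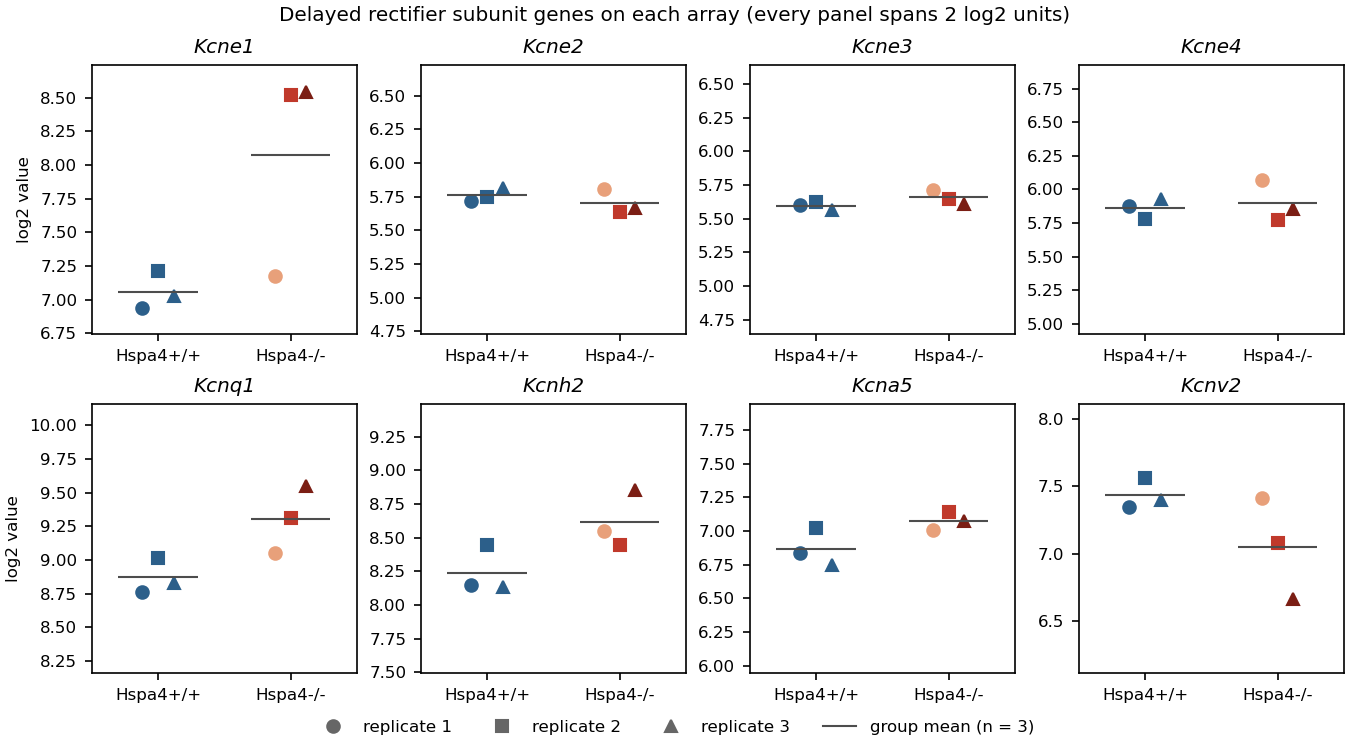
Log2 value of each of the 8 genes on each array, with the arrays labelled Hspa4+/+ on the left and Hspa4-/- on the right of each panel. Symbols mark the replicate number, lines mark the mean of 3 arrays, and every panel spans 2 log2 units, so heights compare as differences within a gene but not as levels between genes. Kcne1 is high on Hspa4-/- replicates 2 and 3 and in the wild-type range on replicate 1.

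The other KCNE genes showed no such step. Kcne2, whose product modifies KCNH2 and other channels, read 5.80, 5.64 and 5.67 on the KO-labelled arrays and 5.72, 5.75 and 5.82 in wild type. Its log2 difference was −0.06 (SE 0.07) on 6 arrays and −0.11 (SE 0.07) on 5. Kcne3, whose product holds KCNQ1 open in epithelia, read 5.71, 5.65 and 5.61 against 5.60, 5.62 and 5.56. The difference was 0.06 (SE 0.06) on 6 arrays and 0.03 (SE 0.07) on 5. Kcne4, whose product inhibits KCNQ1, read 6.07, 5.77 and 5.86 against 5.88, 5.78 and 5.93. Its difference was 0.04 (SE 0.09) on 6 arrays and −0.05 (SE 0.08) on 5, and its sign also turned with other choices of array. The groups overlapped for all these genes on 6 arrays. Kcne2 and Kcne3 lay among the lowest 25% of genes by mean value and Kcne4 among the lowest 50%, where the table gives no measure of background. The span from the lowest to the highest of the 6 arrays was 0.18 for Kcne2, 0.15 for Kcne3 and 0.30 for Kcne4, against 1.60 for Kcne1.

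Kcnq1, the pore-forming partner of KCNE1, was higher on the KO-labelled arrays, by less than Kcne1. It read 9.05, 9.31 and 9.55 on KO-labelled arrays 1, 2 and 3 and 8.76, 9.02 and 8.83 in wild type. The groups did not overlap, although KO-labelled array 1 stood only just above wild-type array 2. The log2 difference was 0.43 (SE 0.12), or 1.35-fold, on 6 arrays and 0.56 (SE 0.10), or 1.48-fold, on 5. Set against Kcnq1 within the same array, Kcne1 stood 1.02 and 0.80 further above its wild-type mean on KO-labelled arrays 2 and 3. The same quantity was −0.06 on KO-labelled array 1 and between −0.01 and 0.01 on the 3 wild-type arrays. Within wild type the 2 genes therefore moved by nearly equal amounts from array to array, and on KO-labelled arrays 2 and 3 they did not.

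Kcnh2, which encodes the alpha subunit of the rapid delayed rectifier IKr, was also higher. It read 8.55, 8.45 and 8.85 on the KO-labelled arrays and 8.15, 8.44 and 8.13 in wild type. The groups did not overlap, but the gap was narrow: KO-labelled array 2 and wild-type array 2 were all but equal. The log2 difference was 0.38 (SE 0.12) on 6 arrays and 0.41 (SE 0.14) on 5. On 5 arrays it was 0.21 without KO-labelled array 3 and was 0.61 without KO-labelled array 2. Kcnh2 is the gene on which KO-labelled array 1 stood farthest from the wild-type mean among the 8, at 0.31.

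Kcna5, which encodes the Kv1.5 channel of the slowly inactivating current of mouse ventricle, read 7.01, 7.14 and 7.07 on the KO-labelled arrays and 6.83, 7.02 and 6.75 in wild type. Wild-type array 2 lay above KO-labelled array 1, so the groups overlapped on 6 arrays and did not on 5. The log2 difference was 0.20 (SE 0.08) on 6 arrays and 0.24 (SE 0.09) on 5.

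Kcnv2 went the other way. It encodes Kv8.2, a silent subunit that forms no channel alone and alters Kv2 channels. It read 7.08 and 6.66 on KO-labelled arrays 2 and 3 and 7.35, 7.56 and 7.40 in wild type. KO-labelled array 1, at 7.42, again lay inside the wild-type range. The log2 difference was −0.38 (SE 0.16) on 6 arrays and −0.57 (SE 0.12) on 5. It rested in part on KO-labelled array 3: without that array it was −0.19 on 6 arrays and −0.36 on 5.

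**Figure D2:**
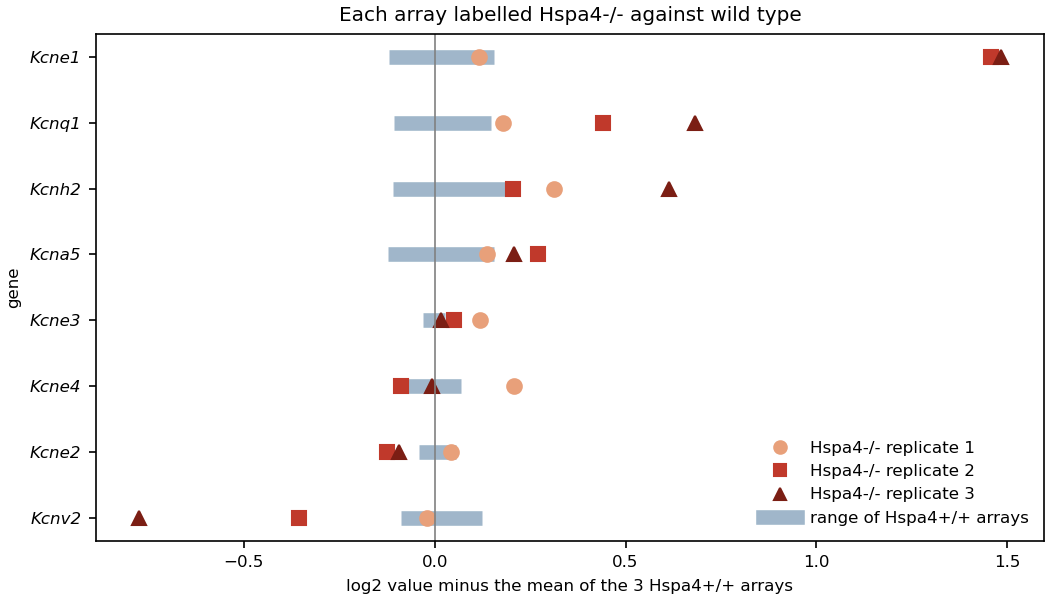
Log2 value of each of the 8 genes on each array labelled Hspa4-/- minus the mean of the 3 Hspa4+/+ arrays, with genes ordered by the difference on 5 arrays. Blue bars show the range of the Hspa4+/+ arrays. Replicates 2 and 3 lie 1.46 and 1.48 to the right for Kcne1 and 0.36 and 0.77 to the left for Kcnv2, while replicate 1 lies inside the wild-type bar for both.

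Across the 8 genes, 6 had a higher mean on the KO-labelled arrays and 2 a lower one on 6 arrays, and 5 and 3 on 5 arrays. On 6 arrays 2 of the 8, Kcnq1 and Kcnh2, were higher without overlap and 0 were lower, beside 6.08% of all genes higher and 9.07% lower without overlap. On 5 arrays 4 of the 8 were higher without overlap (Kcne1, Kcnq1, Kcnh2 and Kcna5) and 2 lower (Kcne2 and Kcnv2), beside 14.4% and 18.9% of all genes. The genes were chosen on this contrast, so these counts support nothing. The median log2 difference over the 8 was 0.13 on 6 arrays and 0.14 on 5, beside −0.01 and −0.02 over all genes. Wild-type array 2 was the highest wild-type array for 6 of the 8 genes, the exceptions being Kcne2 and Kcne4. Without it the 5-array difference was 1.55 for Kcne1, 0.63 for Kcnq1, 0.51 for Kcnh2, 0.32 for Kcna5 and −0.50 for Kcnv2.

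RefSeq promoter windows of build GRCm38.p6 were held for 5 of the 8 genes, Kcne2, Kcne3, Kcne4, Kcnh2 and Kcna5. The 250 bases before the annotated start are shown for Kcna5 and Kcnh2, which among the 5 had the largest differences between the groups, and for Kcne2, the neighbour of Kcne1 that showed no step. Capitals mark matches on either strand to 1 of 4 motifs, which were the heat shock element GAANNTTC, the GATA site AGATAA, the GC box GGGCGG and the TATA box TATAAA.
Kcna5, chr6:126535556-126535805, minus strand: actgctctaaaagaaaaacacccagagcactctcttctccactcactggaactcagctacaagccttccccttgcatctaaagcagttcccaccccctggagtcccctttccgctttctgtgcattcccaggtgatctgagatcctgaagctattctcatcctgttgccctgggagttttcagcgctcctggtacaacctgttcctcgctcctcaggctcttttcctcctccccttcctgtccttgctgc
Kcnh2, chr5:24329592-24329841, minus strand: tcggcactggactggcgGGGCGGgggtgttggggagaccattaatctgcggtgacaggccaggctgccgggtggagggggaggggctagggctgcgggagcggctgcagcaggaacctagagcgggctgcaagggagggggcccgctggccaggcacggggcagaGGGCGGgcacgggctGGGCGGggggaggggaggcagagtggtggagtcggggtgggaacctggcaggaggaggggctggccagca
Kcne2, chr16:92292139-92292388, plus strand: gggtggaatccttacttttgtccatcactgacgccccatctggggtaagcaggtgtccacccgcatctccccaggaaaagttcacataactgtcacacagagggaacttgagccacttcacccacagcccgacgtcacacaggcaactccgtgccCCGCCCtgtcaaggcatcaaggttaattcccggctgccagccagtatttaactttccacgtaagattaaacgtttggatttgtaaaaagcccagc
The Kcnh2 window precedes a start inside the gene, which spans 24319589 to 24351684 of chromosome 5. It holds 3 GC boxes and has a GC content of 73.6%, against 53.2% in the Kcna5 window, which holds none of the 4 motifs, and 52.4% in the Kcne2 window, which holds 1 GC box. Over all 32851 windows of the table cut to the same length, 32.7% hold a GC box, 6.69% a heat shock element, 9.99% a GATA site and 12.4% a TATA box. The only heat shock element among the windows of these genes was in the second Kcne2 window, which precedes another start of that gene. A match is a match of letters only.

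The genes around Kcne1 were measured too. Kcne1 lies on chromosome 16 (GRCm38.p6, 92346001 to 92359468), 47.9 kb from Kcne2 and 32.5 kb from Rcan1, the calcineurin regulator. Over the 4 nearest measured genes on each side, the log2 differences lay between −0.13 and 0.09 on 6 arrays and between −0.17 and 0.04 on 5. Of the 7 that are not among the 8 channel genes, 0 passed an adjusted p of 0.05 in either form (limma, smallest adjusted p = 0.608 on 6 arrays and 0.407 on 5). Rcan1 differed by 0.03 (SE 0.08) on 6 arrays and Smim11 by −0.13 (SE 0.08). The difference farthest from zero among the 8 neighbours was that of Smim11 on 5 arrays, −0.17. Clic6, Kcne2 and Fam243 were low, at percentiles 13.6, 19.9 and 22.1 by mean value among all genes. At such levels an unchanged gene cannot be separated from one too low to show a change. Setd4, the farthest of the 8, lay 1224 kb away.

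**Figure D3:**
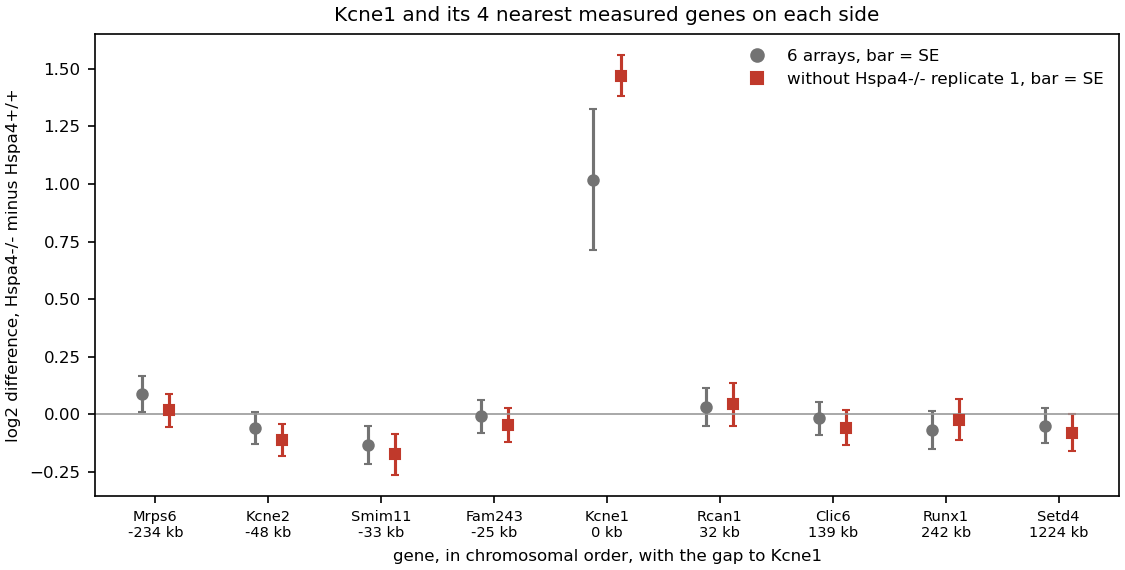
Log2 difference between the KO-labelled arrays and Hspa4+/+ for Kcne1 and the 4 nearest measured genes on each side, in chromosomal order with the gap to Kcne1 in kb. Grey circles use 6 arrays, red squares the 5 without Hspa4-/- replicate 1, and bars are SE. Kcne1 stands at 1.02 and 1.47 and every neighbour lies between −0.17 and 0.09. Clic6, Kcne2 and Fam243 are low in mean value.

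The genes whose values ran most like those of Kcne1 over the 6 arrays were ranked by Pearson r. Among 70 named genes with a span of at least 1 on the log2 scale, the highest Pearson r with Kcne1 belonged to Dpysl3 (0.975), the G protein gene Gnao1 (0.972), Rasd2 (0.956), the cardiac ankyrin repeat gene Ankrd1 (0.956), the myosin light chain gene Myl9 (0.952), the atrial natriuretic peptide gene Nppa (0.948), the skeletal actin gene Acta1 (0.947) and the LIM-domain gene Fhl1 (0.941). The lowest belonged to Hspa4 (−0.996), the monoamine oxidase gene Maob (−0.991), the Hsp110 gene Hsph1 (−0.980) and the kinase gene Mylk4 (−0.977). These values describe likeness over 6 arrays and are set largely by the 2 arrays on which Kcne1 was high. Nppa differed from Kcne1 in standing 0.75 above the wild-type mean on KO-labelled array 1, where Kcne1 stood at 0.12. Among the other 7 channel genes, Kcnq1 had the highest r with Kcne1 (0.938) and Kcnv2 the lowest (−0.861).

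**Figure D4:**
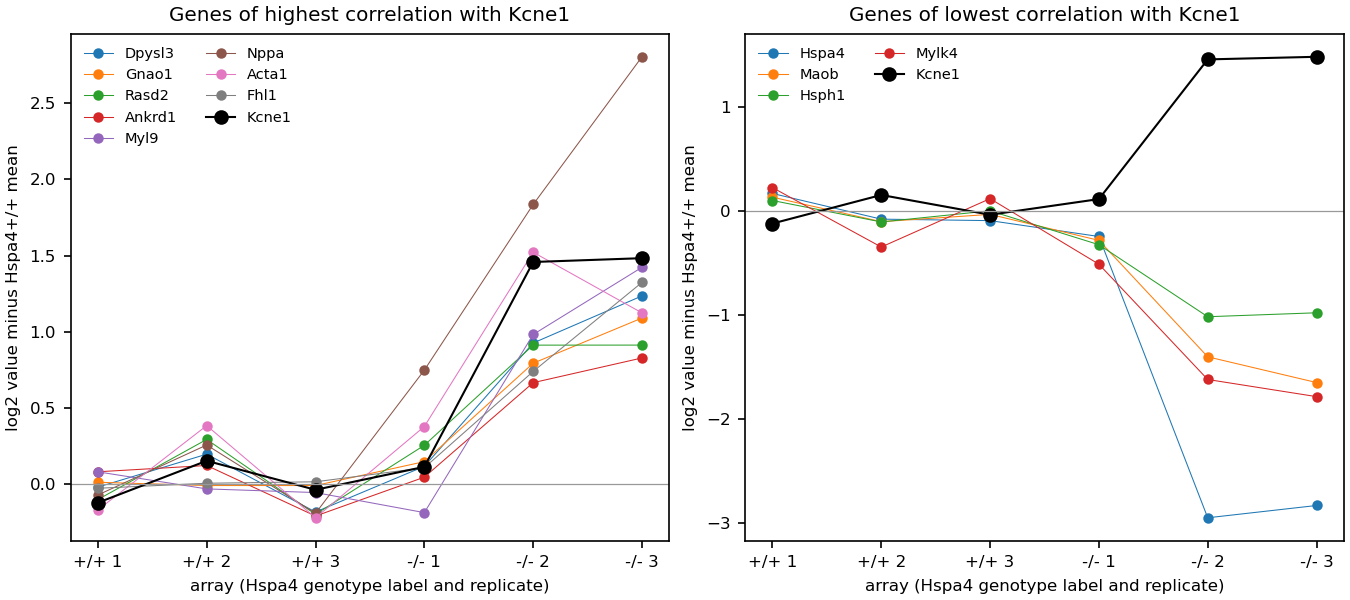
Log2 value minus the Hspa4+/+ mean on each array for Kcne1 (black) and, on the left, the 8 genes of highest and, on the right, the 4 of lowest Pearson r with it. Thin lines join the points of 1 gene and carry no order among replicates. Kcne1 and the genes on the left part from wild type mainly on Hspa4-/- replicates 2 and 3, where Nppa goes farthest.

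Most of the wider delayed rectifier family lay near zero difference. Of 95 related genes listed, 86 were measured, and 0 passed on 6 arrays (limma, smallest adjusted p = 0.210), where 0% of all genes passed. An unadjusted p under 0.05 was reached by 17 of the 86 on 6 arrays (limma), which is 19.8%, beside 11.2% of all genes. The lists were chosen with earlier results known, so that share supports nothing. On 5 arrays 0 rose and 2 fell, which is 2.33%, beside 0.232% of all genes called higher and 0.208% called lower. Among 18 other alpha subunits of the Kv1, Kv2, Kv3, KCNQ and ether-a-go-go families, all 18 differed by less than 0.15 in either form, and 0 passed. Most of them were low. Ranked by mean value among all genes, Kcnq5 and Kcna3 stood at percentiles 59.7 and 51.9, and the others lay between 13.0 and 47.7. Without a measure of background, small differences at low levels cannot separate unchanged genes from genes too low to show a change. Kcna10 differed by −0.09 (SE 0.08) and Kcnb2 by 0.08 (SE 0.08) on 6 arrays. Of 9 silent subunits 0 passed, and Kcng2 had the largest difference, at 0.37 (SE 0.15; limma, adjusted p = 0.411) on 6 arrays. Its groups did not overlap. Of 4 genes, the Kv beta subunits and the remaining KCNE gene, Kcne1l, 0 passed. Kcnab2, which encodes a cytosolic Kv beta subunit, differed by −0.07 (SE 0.11) on 6 arrays and −0.21 (SE 0.07) on 5.

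Genes of the KCNQ1-KCNE1 complex, which holds the anchoring protein AKAP9, protein kinase A and protein phosphatase 1, spread more widely. Of 18 measured, 0 passed in either form, with differences from −0.16 to 0.37 on 6 arrays and a median of 0.06. Ppp1ca, a catalytic subunit of protein phosphatase 1, differed by 0.37 (SE 0.10; limma, adjusted p = 0.245) on 6 arrays and 0.46 (SE 0.09; limma, adjusted p = 0.0778) on 5. Tcap, which encodes the Z-disc protein telethonin, a binding partner of KCNE1, differed by 0.30 (SE 0.18; limma, adjusted p = 0.607) on 6 arrays, where its groups overlapped, and by 0.55 (SE 0.10; limma, adjusted p = 0.0586) on 5. Usp2, a deubiquitinase that acts on KCNQ1, differed by 0.31 (SE 0.11) on 6 arrays. Of 12 measured genes that fold, traffic or degrade KCNH2, 0 passed, and they lay on both sides, from −0.30 to 0.55 on 6 arrays. Rnf207, a ubiquitin ligase gene that acts on KCNH2 levels, differed by 0.55 (SE 0.10; limma, adjusted p = 0.210) on 6 arrays and 0.62 (SE 0.11; limma, adjusted p = 0.0592) on 5. Stub1, the ligase CHIP, differed by 0.33 (SE 0.08; limma, adjusted p = 0.229) and 0.41 (SE 0.07; limma, adjusted p = 0.0620). Both had groups that did not overlap. Dnaja1, a heat shock protein 40 co-chaperone gene, differed the other way, by −0.30 (SE 0.13; limma, adjusted p = 0.457) on 6 arrays and −0.46 (SE 0.09; limma, adjusted p = 0.0655) on 5. Tcap and Dnaja1 are named after their values were seen. Some of these genes passed on 5 arrays under other settings. With array weights all 5 of Tcap, Ppp1ca, Rnf207, Stub1 and Dnaja1 passed (limma, adjusted p from 0.0377 to 0.0415), as they did without wild-type array 2 (0.0148 to 0.0370). With the lowest 25% of genes left out Tcap and Rnf207 passed (limma, adjusted p = 0.0450 for both), and with the lowest 50% left out Dnaja1 passed too (adjusted p = 0.0495). With the replicate block Tcap (limma, adjusted p = 0.0287) and Rnf207 (adjusted p = 0.0471) passed. Rnf207 also passed without KO-labelled array 2 (limma, adjusted p = 0.0295).

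The list of other potassium channel genes, not all of them particular to the ventricular myocyte, held both calls on 5 arrays. Of 25 measured, Kcnd2, which encodes the Kv4.2 subunit of the transient outward current, fell by 0.60 (SE 0.08; limma, adjusted p = 0.0237). Kcnj3, an acetylcholine-gated inward rectifier gene, fell by 0.55 (SE 0.08; limma, adjusted p = 0.0310). On 6 arrays Kcnd2 differed by −0.53 (limma, adjusted p = 0.210; 0.0451 with array weights and 0.0445 without wild-type array 2) and Kcnj3 by −0.38 (limma, adjusted p = 0.323). Without any 1 of KO-labelled arrays 2 and 3 or wild-type arrays 1 and 3, neither passed on the 4 arrays left, and Kcnj3 did not pass with array medians subtracted.

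**Figure D5:**
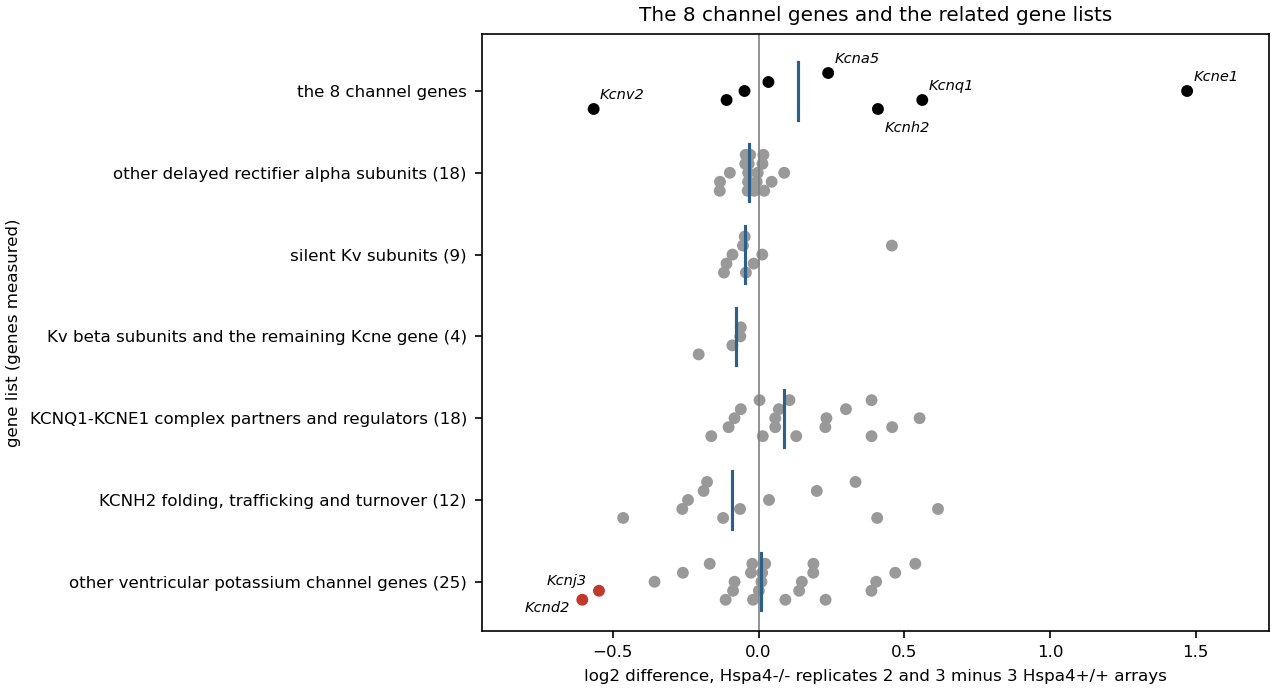
Log2 difference of each gene on 5 arrays (Hspa4-/- replicates 2 and 3 minus the 3 Hspa4+/+ arrays), for the 8 channel genes (black) and 6 lists of related genes (grey), with the number measured in brackets. Blue lines are list medians and red points passed an adjusted p of 0.05 (limma). The 18 other alpha subunits, most of them low in mean value, sit within 0.15 of zero. Kcne1 at 1.47 lies to the right of every listed gene.

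Markers of other cells that a ventricle sample could hold were read beside these values. Of 73 markers measured over 9 lists, 0 passed in either form (limma, smallest adjusted p = 0.0655 on 5 arrays). Kcne1 is known from the conduction system of the mouse heart. The 11 measured conduction system markers had a median log2 difference of 0.02 on 6 arrays. Their summed level (log2 of the sum of linear values) ran from 10.31 to 10.39 on the KO-labelled arrays and from 10.27 to 10.31 in wild type. These markers lay on both sides. On 6 arrays 2 of the 11 were higher and 1 lower without overlap of the groups, beside 6.08% and 9.07% of all genes. The pacemaker channel gene Hcn4, a defining marker, differed by −0.27 (SE 0.08) on 6 arrays, the transcription factor gene Tbx3 by 0.24 (SE 0.09) and the connexin gene Gjc1 by 0.21 (SE 0.09). On 5 arrays Hcn4 differed by −0.36 (SE 0.07; limma, adjusted p = 0.0655), Tbx3 by 0.28 (SE 0.09) and Gjc1 by 0.27 (SE 0.09). Hcn4 passed on 5 arrays with array weights (limma, adjusted p = 0.0392) and without wild-type array 2 (limma, adjusted p = 0.0297). The 8 atrial markers had a median difference of −0.0028 on 6 arrays, and their summed level ran from 10.01 to 10.11 against 9.99 to 10.24. The 10 ventricular myocyte markers had a median difference of 0.18 on 6 arrays, with a summed level from 15.53 to 15.60 against 15.40 to 15.49. On 6 arrays 6 of these 10 were higher and 0 lower without overlap, beside the same shares of all genes, 6.08% and 9.07%. The 8 macrophage markers had a median of −0.14, with a summed level from 10.45 to 10.57 against 10.67 to 10.75. Of these 8, 0 were higher and 5 lower without overlap. Every other list had at most 2 in either direction. The summed level of the smooth muscle and pericyte markers was 12.43 and 12.57 on KO-labelled arrays 2 and 3 and lay between 12.06 and 12.28 on the others. Acta2, the highest of these 8 genes in level, read 11.66 and 11.87 on KO-labelled arrays 2 and 3 and weighs most in that sum. The 8 had a median difference of 0.11 on 6 arrays and 0.19 on 5, with a range from −0.11 to 0.36 on 5. Summed over the 8 skeletal muscle markers, the level ran from 10.85 to 10.91 on the KO-labelled arrays and from 10.65 to 10.75 in wild type. Marker by marker, the median difference of this list was −0.005 on 6 arrays. Of its 8 genes 7 differed by less than 0.15, and the largest difference was 0.24. The summed levels of the fibroblast, endothelial and erythroid markers overlapped between the groups. The part of these shifts in the channel gene values was not tested.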

How the data were processed

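Affymetrix Mouse Gene 1.0 ST arrays were used, per the labels' protocols, with RNA extracted with Trizol. The authors deposited 1 log2 value for each of 21225 probe sets and 6 arrays. Per the submitters' processing notes, the tools were affy and R 2.13.0. How background, normalisation and summary were handled is not given in the sources that were used. The values show a log2 scale and were kept as deposited. The platform's annotation gave 1 symbol to 20239 probe sets, several to 0 and none to 986, and all 20239 gene numbers matched RefSeq (GRCm38.p6), from which positions and promoter windows came. Groups came from the labels. A 2-group model was fitted in limma 3.58.1 (R 4.3.3; lmFit, eBayes) over 20239 genes with Benjamini-Hochberg adjustment and a threshold of 0.05, and was checked on simulated data. Differences are Hspa4-/- minus Hspa4+/+, with limma's moderated SE, and folds come from log2 means. Precision is limited by the number of arrays.

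The 8 genes, the related lists and the markers were chosen with earlier results of these data known. Named genes were the 8, Hspa4, the 8 genes most and 4 least like Kcne1 over the 6 arrays, and the 4 nearest on each side. List genes past the threshold were named too, or otherwise the 2 with the smallest p on 6 arrays. Hcn4, Tbx3, Gjc1, Tcap, Dnaja1, Myl2, Acta2, Kcnq5, Kcna3, Xist, Kcne1l and the 8 atrial markers were named besides. Listed genes without a probe set of their own were not analysed here. Alternatives were low-value filters, quantile normalisation, median subtraction, array weights, a trended robust prior, the replicate block and leaving out each array. The planned mean over probe sets and pseudocount did not apply, since each gene had 1 probe set and values were log2.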

Additional observations from a re-analysis of the deposited data

How the results depend on the processing

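Kcne1, Kcnq1, Kcnh2 and Kcna5 stayed higher and Kcnv2 lower under every alternative run, while Kcne4 changed sign. Kcne1 ran from 0.98 to 1.29 on 6 arrays under the alternatives that keep all arrays and from 0.79 to 1.47 leaving out arrays, and from 1.41 to 1.55 on 5 arrays over all of them. On 5 arrays quantile normalisation moved Kcne2 to −0.06 and Kcne3 to 0.09. The lowest 25% filter left 6 of the 8 genes in the test and the 50% filter 5. Counts of genes past the threshold moved far more. On 6 arrays, where 0 passed, either filter and the replicate block gave 2 and array weights 115, with 0 to 112 leaving out arrays (89 without KO-labelled array 1, 112 without wild-type array 2). On 5 arrays, where 89 passed, the filters gave 156 and 167, subtracted medians 36, array weights 321 and the replicate block 134, with 2 to 875 leaving out arrays (875 without wild-type array 2). Of the 86 related genes, array weights gave 1 on 6 arrays, with 0 to 2 leaving out arrays. On 5 arrays, where 2 passed, the filters gave 4 and 5, subtracted medians 1, array weights 9 and the replicate block 4, with 0 to 13 leaving out arrays. The cause of these shifts was not tested. Deviations of same-numbered arrays from their group means had correlations of −0.17, 0.09 and −0.25 over all genes. With 3 arrays a group, and KO-labelled array 1 in its group mean, these cannot tell whether the numbers pair the arrays. With 2 or 3 arrays a group and no measure of background, differences of the size seen for Kcne2, Kcne3 and Kcne4 could not be resolved.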
